A study of Mus musculus with 72 samples.

Results

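Csmd1, Csmd2 and Csmd3 were followed through the 5 deposited tables of differential H3K27me1 and H3K27me2 sites from mouse nucleus accumbens, part of the reward circuit in the ventral striatum. A site was taken where it overlapped the body of 1 of the 3 genes or the 1000 bp before its start, which gave 176 of the 36113 deposited sites. The genes had been picked for the sites they hold, so their counts, directions and changes are descriptions and carry no test. All libraries came from wild-type male mice described as adult, and the marks were mapped by CUT&RUN, where an antibody brings a nuclease to the mark and the DNA it cuts free is sequenced. In the chronic social defeat cohort, control mice were compared with mice labelled susceptible or resilient after defeat, with 4 libraries per group and mark. In the second cohort, mice with early life stress (ELS) and subthreshold defeat were compared with standard-reared control mice, with 3 H3K27me1 libraries per group, so that rearing and defeat cannot be told apart there. Susceptible and resilient libraries were each set against the same control libraries. The labels do not say whether libraries came from separate or pooled animals, so the spread between them may be technical. CUT&RUN of whole tissue cannot tell a change within cells from a change in the mix of cells.

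The Csmd genes encode very large membrane proteins of neurons and some other cells, whose outer part is a long chain of alternating CUB and sushi domains. Sushi domains are the building blocks of the regulators of complement, the innate immune cascade that also tags synapses for removal by microglia. CSMD1 can restrain complement activation, CSMD2 is found at dendritic spines, and CSMD3 takes part in dendrite growth. H3K27me1 is commonly found over the bodies of transcribed genes, whereas H3K27me2 is broadly spread outside active genes, and both are intermediates on the way to the repressive H3K27me3.

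All 3 genes are long and consist almost entirely of introns (GENCODE M21, mm10 build). Csmd1 (ENSMUSG00000060924.15) spans 1643050 bp at chr8:15892537-17535586 on the minus strand in 70 exons, which make up 0.863% of the body. Csmd2 (ENSMUSG00000028804.20) spans 579800 bp at chr4:127987857-128567656 on the plus strand in 71 exons, or 2.34% of the body. Csmd3 (ENSMUSG00000022311.15) spans 1211427 bp at chr15:47580637-48792063 on the minus strand in 71 exons, or 1.07% of the body. Their coding exons are of like size, with medians of 172, 172 and 174 bases, but not of like composition. The median GC content of a coding exon was 52.5% in Csmd1, 56.7% in Csmd2 and 44.2% in Csmd3, and 15 of 69 whole coding exons of Csmd3 held no CpG, against 3 of 68 in Csmd1 and 2 of 68 in Csmd2.

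A whole coding exon lay inside a site in 12 cases, and 5 of these exons are shown because each stands for a different comparison or gene. Csmd3 exon 58 (chr15:47633669-47633851, minus strand) lay in the susceptible site of smallest p, and exon 31 (chr15:47838408-47838602, minus strand) in a resilient site that overlapped susceptible ones. Csmd3 exon 45 (chr15:47695701-47695846, minus strand) lay in a site that was lower after ELS and defeat. Csmd1 exon 22 (chr8:16189923-16190092, minus strand) lay in a higher susceptible site, and Csmd1 exon 5 (chr8:16697916-16698123, minus strand) in the leading higher site after ELS and defeat. The sequences come from the GENCODE transcripts (mm10), 5′ to 3′ on the coding strand, and capitals mark each CpG.
Csmd3 exon 58: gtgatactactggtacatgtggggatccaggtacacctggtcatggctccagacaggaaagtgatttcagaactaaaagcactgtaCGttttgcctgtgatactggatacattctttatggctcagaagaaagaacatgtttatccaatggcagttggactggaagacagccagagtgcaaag
Csmd3 exon 31: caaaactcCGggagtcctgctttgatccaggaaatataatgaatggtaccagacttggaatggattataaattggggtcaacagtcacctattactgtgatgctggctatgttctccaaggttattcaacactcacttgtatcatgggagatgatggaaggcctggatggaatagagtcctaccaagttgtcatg
Csmd3 exon 45: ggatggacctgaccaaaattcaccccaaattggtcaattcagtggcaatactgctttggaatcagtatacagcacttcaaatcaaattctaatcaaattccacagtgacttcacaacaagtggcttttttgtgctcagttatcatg
Csmd1 exon 22: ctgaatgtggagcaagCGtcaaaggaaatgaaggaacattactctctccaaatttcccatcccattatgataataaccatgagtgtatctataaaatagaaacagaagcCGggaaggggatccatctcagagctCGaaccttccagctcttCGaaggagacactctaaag
Csmd1 exon 5: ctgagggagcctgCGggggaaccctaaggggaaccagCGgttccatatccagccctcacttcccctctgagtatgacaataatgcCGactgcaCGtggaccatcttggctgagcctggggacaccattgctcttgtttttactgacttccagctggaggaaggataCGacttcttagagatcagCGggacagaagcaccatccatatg
The 3 Csmd3 exons held 1, 1 and 0 CpGs, and the Csmd1 exons 4 and 6.

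In susceptible mice, sites called higher in H3K27me1 than in controls were spread along Csmd3 and lay in part of Csmd1, and Csmd2 had no site. By the authors' test (adjusted p under 0.05), Csmd3 held 93 sites, 92 of them higher and 1 lower. Csmd1 held 25 sites, 19 higher and 6 lower. Over the 3 genes, 111 of 118 sites, or 94.1%, were higher, beside 50.3% of all 12122 susceptible sites. In protein-coding genes of at least 500000 bp, these 3 included, the share was 87.1%. The changes were small, from 0.28 to 0.56 in absolute log2, with medians of 0.40 in Csmd3 and 0.44 in Csmd1. Over the whole table the median was 0.43 at higher and -0.43 at lower sites. On the limma scale the median over the 3 genes was 0.40, beside 0.25 over all sites of the table, where both values pool higher and lower sites.

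The Csmd3 sites covered 124100 bases, or 10.2% of the gene body, against 1.81% in Csmd1. They began 13.1 kb from the gene start and ran to its end, where the last site lay mostly past the annotated gene. In 5 equal stretches of the gene from 5′ to 3′ there were 15, 14, 19, 18 and 27 sites, so that the last stretch held 29% of them. The median gap between neighbouring sites was 8.45 kb and the largest 59 kb. Of the 93 sites, 84 held no exon of any annotated Csmd3 transcript and 8 held coding sequence. Intron 10, with 9 sites in 70.2 kb, and intron 1, with 8 in 118 kb, held the most. In Csmd1 the sites sat in the middle of the gene: its 5 stretches held 2, 9, 9, 3 and 2 sites. Of the 25, 13 lay in intron 3, which makes up 19.3% of the body, and 24 were intronic. The 6 lower sites of Csmd1 fell between higher ones, and 1 of them overlapped a lower resilient site.

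**Figure D1:**
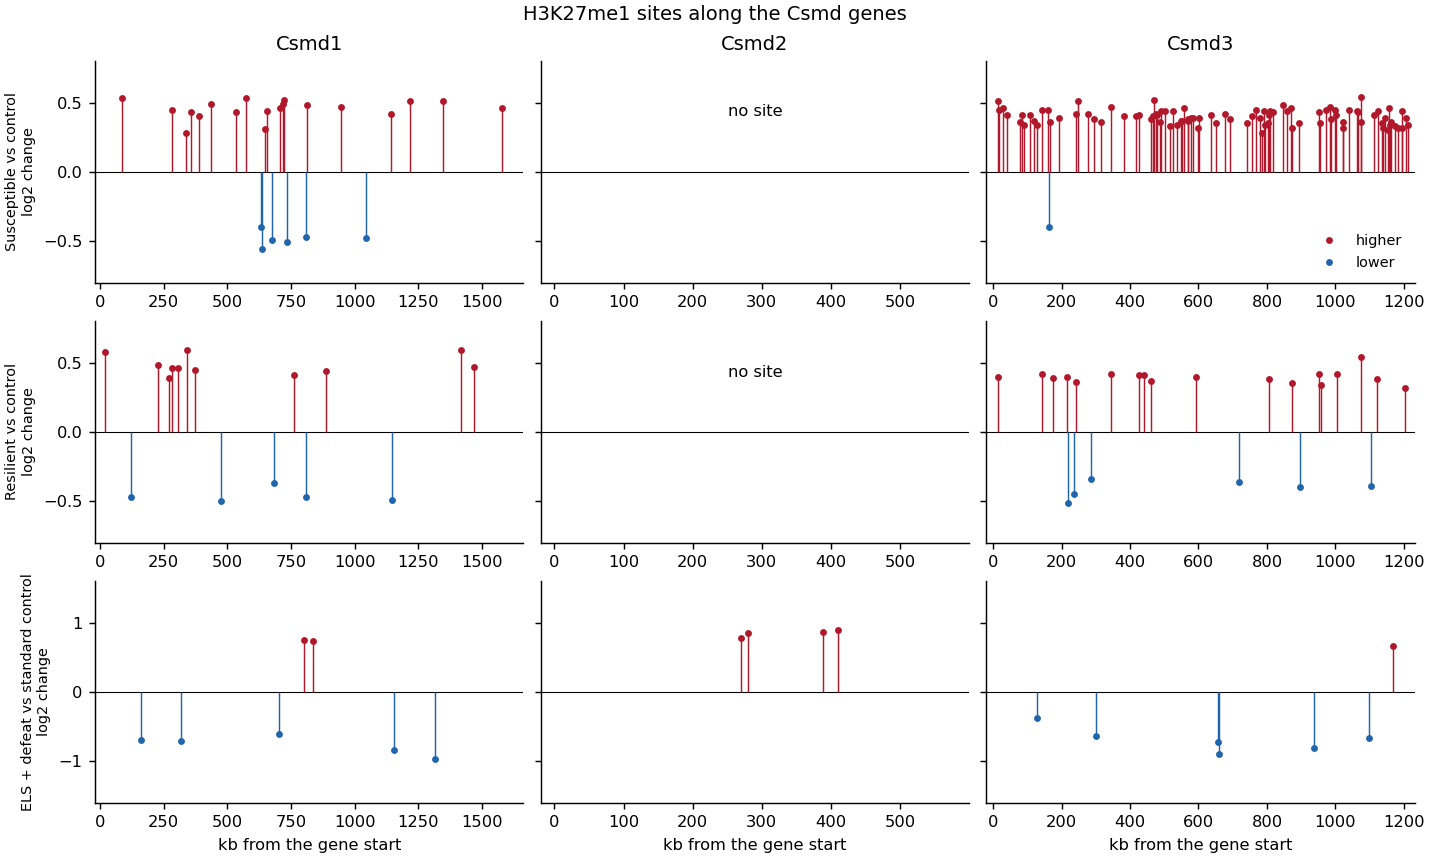
Position of each H3K27me1 site (x axis, kb from the gene start in the direction of transcription) and the authors' log2 change of stressed over control libraries (y axis) for 3 genes and 3 comparisons. Red marks higher and blue lower sites. The 92 higher sites of Csmd3 in susceptible libraries run along the whole gene, while the 7 sites after ELS and defeat are mostly lower; the y axis is wider in the bottom row.

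The reads at single sites show how these changes look in each library. The leading Csmd3 site, meaning the one of smallest authors' p in its direction, was at chr15:47631901-47635400. It spanned exon 58 over 3500 bp and held 493.93, 475.00, 373.89 and 514.30 normalised reads in susceptible libraries 26, 29, 32 and 35, and 360.44, 438.96, 309.34 and 357.71 in control libraries 25, 28, 31 and 34. Susceptible library 32 lay below control library 28, so the groups overlapped. The means were 464 ± 62.4 and 367 ± 53.6 (SD, n = 4 each), a log2 change of 0.34 ± 0.15 (SE, limma). This was also the site that overlapped the start of a short internal Csmd3 transcript. In all, 9 higher susceptible Csmd3 sites lay within 5000 bp of any of its 7 annotated transcript starts, and no site lay that near a start of Csmd1 or Csmd2.

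The leading Csmd1 site, at chr8:16829401-16831100 in intron 3, held 142.25, 156.23, 179.08 and 175.08 reads in susceptible libraries 26, 29, 32 and 35. The controls held 119.53, 110.60, 109.87 and 134.03. Every susceptible library lay above every control, with means of 163 ± 17.1 and 118 ± 11.2 (SD, n = 4 each) and a log2 change of 0.46 ± 0.14 (SE, limma). At the leading lower site of Csmd1, chr8:16899001-16900100 in the same intron, the susceptible libraries held 67.17, 65.02, 39.93 and 62.92 reads and the controls 89.19, 78.34, 96.00 and 82.55. The groups were again apart, with library 32 lowest, and the log2 change was -0.58 ± 0.16. Without library 32 it was -0.40. The 1 lower site of Csmd3, at chr15:48627501-48628700 in intron 2, held 91.5 ± 16.7 against 121 ± 16.4 reads, and its groups overlapped.

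**Figure D2:**
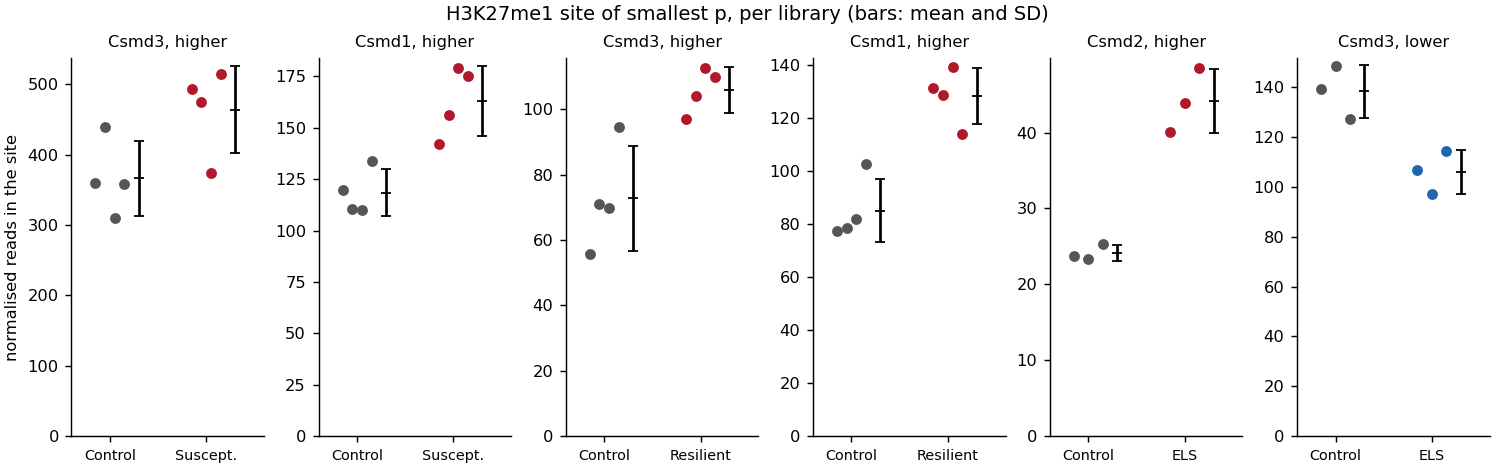
Normalised H3K27me1 reads (y axis, from 0) in each library at the site of smallest p of a gene and comparison. Grey points are controls, red points stressed libraries at higher sites and blue points at a lower site; black bars are mean and SD. The groups are apart in 5 of the 6 panels, and in the first a susceptible library at 373.89 reads lies below a control at 438.96. The panels were picked for small p on these same reads. Groups were apart at 52.8% of all susceptible, 54.7% of all resilient and 99.0% of all ELS sites.

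Susceptible library 32 stood below the other 3 in Csmd3 but not in Csmd1. Averaged over the 92 higher Csmd3 sites, libraries 26, 29, 32 and 35 held 117.9, 124.0, 99.0 and 116.5 reads per kb. The control libraries ran from 80.4 to 93.7, and the group means were 114 ± 10.8 and 87.4 ± 6.03 (SD, n = 4 each). Relative to the control mean, libraries 26, 29 and 35 were higher by 0.44, 0.52 and 0.42 on the log2 scale and above it at 92 of 92 sites. Library 32 was higher by 0.20 and above the control mean at 79 of 92. It was the lowest susceptible library at 62 of the 92 sites. Over all 6097 higher sites of the table it was higher by 0.35 and was the lowest at 42.9% of them. At the 19 higher Csmd1 sites the same libraries were higher by 0.40, 0.49, 0.45 and 0.47, with no library apart. The group means there were 88.7 ± 3.10 and 65.3 ± 4.27 reads per kb (SD, n = 4 each).

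Every susceptible library lay above, or every one below, all controls at 33 of 93 Csmd3 sites and 10 of 25 Csmd1 sites. Together this was 36.4%, beside 52.8% of all susceptible sites. Without library 32 the Csmd3 count was 68 of 93, and over the 3 genes 82 of 118 in place of 43. The share of 52.8% holds with all libraries in, and fewer libraries make a separation easier. By limma, 112 of the 118 sites had an unadjusted p under 0.05, beside 96.7% of all sites in the table, but these sites had been selected on the same libraries. Adjusted over all 270324 windows tested, 0 of 118 passed in limma, with a smallest adjusted p of 0.267. Of all 12122 susceptible sites 0 passed too, so that this count says nothing of these genes. The authors' G-test takes the summed reads of each group, so that differences among libraries of a group do not enter it.

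**Figure D3:**
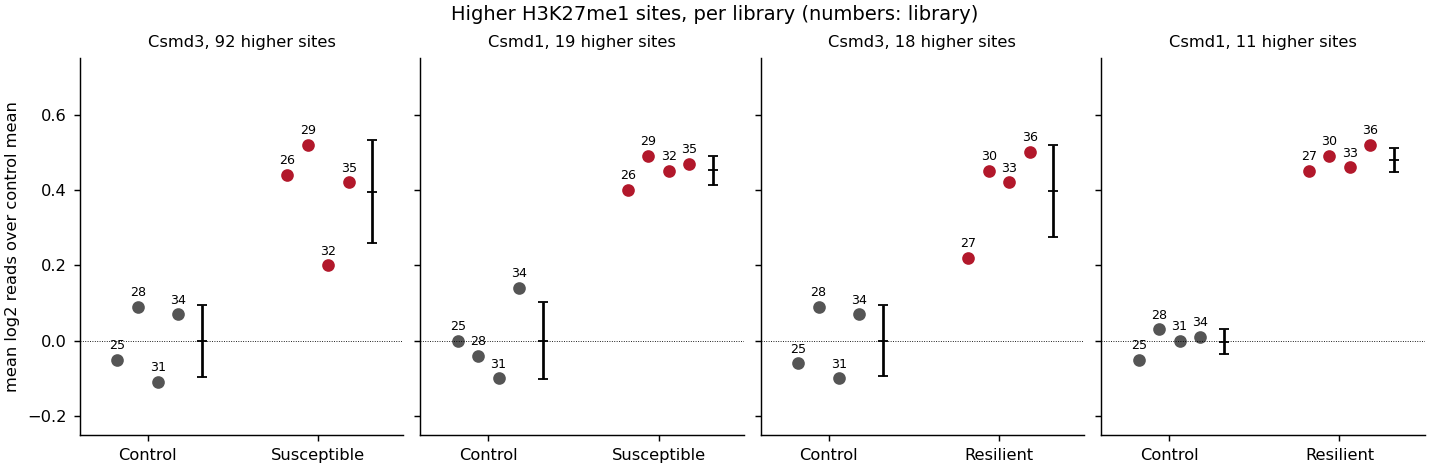
Mean log2 of normalised H3K27me1 reads relative to the control mean (y axis) over the higher sites of Csmd3 and Csmd1, 1 point per library with its number. Grey points are controls, red points susceptible (left pair of panels) or resilient libraries (right pair), and bars are mean and SD. Library 32 at 0.20 and library 27 at 0.22 lie below the other stressed libraries in Csmd3 and not in Csmd1.

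The signal over antibody background was higher in susceptible libraries at most Csmd3 sites, and elsewhere it did not always follow the reads. The authors' enrichment ratio over IgG had a median of 3.6 in susceptible and 2.42 in control libraries over the 93 Csmd3 sites, and the susceptible ratio was the larger at 90 of them. Over the whole table, with 6097 higher and 6025 lower sites, the medians were 2.77 and 2.84. Since 92 of the 93 Csmd3 sites were called higher on the same reads, the larger ratio there is no separate support. At the Csmd1 sites the medians were 2.41 and 2.09. Each group was set against its own IgG libraries, so this ratio depends on the background of the group as well as on the mark. In the resilient comparison the medians were 3.17 and 2.67 in Csmd3 and 2.31 and 2.32 in Csmd1. At the leading higher Csmd1 site of that comparison the ratios were 2.30 in resilient and 2.39 in control libraries. After early life stress and defeat they were 1.9 and 2.1 in Csmd3 and 1.47 and 1.77 in Csmd1, with 1.14 and 0.82 over all sites of that comparison. At the leading lower Csmd3 site of that comparison they were 3.50 and 3.45.

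**Figure D4:**
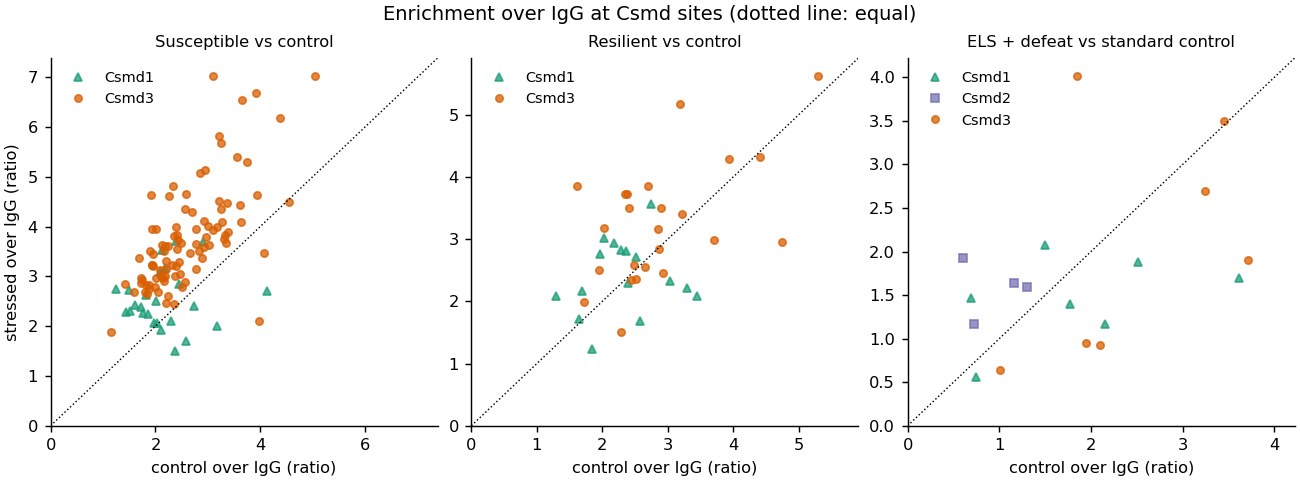
Enrichment of H3K27me1 over IgG (a ratio, from the authors' tables) in stressed (y axis) and control libraries (x axis), 1 point per site, by gene and comparison. The dotted line marks equal values. At 90 of 93 Csmd3 sites of the susceptible comparison the point lies above the line, where 92 of the 93 had been called higher on the same reads.

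In resilient mice most H3K27me1 sites called in Csmd3 and Csmd1 were also higher, with fewer sites in all and a larger share of lower ones. Csmd3 held 24 sites, 18 higher and 6 lower. Csmd1 held 16 sites, 11 higher and 5 lower, and Csmd2 again had none. Higher sites made up 72.5% of the 40, beside 51.7% of all 7005 resilient sites. In protein-coding genes of at least 500000 bp the share was 70.2%, near that of the Csmd genes. Median log2 changes were 0.38 in Csmd3 and 0.45 in Csmd1, and on the limma scale 0.39 over both, beside 0.30 over the table. These medians pool both directions, and over the whole table the authors' median was 0.44 at higher and -0.43 at lower sites. The resilient sites of Csmd1 lay nearer the start than the susceptible ones, with 6, 3, 4, 1 and 2 sites per stretch and 6 of 16 in intron 1. Those of Csmd3 were spread over the gene, with 7, 5, 2, 5 and 5 sites per stretch.

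The leading resilient site of Csmd1, at chr8:16118001-16119500 in intron 26, held 131.10, 128.58, 139.16 and 113.68 reads in resilient libraries 27, 30, 33 and 36 and 77.32, 78.22, 81.78 and 102.66 in the controls. All 4 resilient libraries lay above the controls, with means of 128 ± 10.6 and 85.0 ± 11.9 (SD, n = 4 each) and a log2 change of 0.59 ± 0.14 (SE, limma). The leading site of Csmd3, at chr15:47716201-47717500 in intron 38, held 97.05, 104.19, 112.70 and 109.83 reads against 55.63, 71.11, 69.78 and 94.48. Here too the groups were apart, by a narrow margin over control library 34, and the log2 change was 0.56 ± 0.15. The leading lower sites were at chr15:48572301-48573800 in Csmd3 intron 3 (83.4 ± 8.12 against 119 ± 7.37 reads, groups apart) and at chr8:17060801-17061800 in Csmd1 intron 2 (67.2 ± 13.8 against 94.9 ± 20.3, groups overlapping).

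Resilient library 27 stood to Csmd3 much as library 32 did among the susceptible ones. At the 18 higher Csmd3 sites, libraries 27, 30, 33 and 36 were higher than the control mean by 0.22, 0.45, 0.42 and 0.50 on the log2 scale, and library 27 was the lowest at 14 of 18. Over all 3619 higher resilient sites it was higher by 0.41. At the 11 higher Csmd1 sites the 4 libraries were higher by 0.45, 0.49, 0.46 and 0.52. The resilient groups were apart at 8 of 24 Csmd3 and 8 of 16 Csmd1 sites, 40% in all, beside 54.7% of all resilient sites. Without library 27 the count over the 3 genes was 27 of 40 in place of 16, and without control library 28 it was 25. Again the share of 54.7% holds with all libraries in, so these counts cannot be set against it. By limma, 40 of 40 had an unadjusted p under 0.05, beside 97.6% of all sites, and 0 passed adjusted over 275586 windows (smallest adjusted p = 0.424). Of all 7005 resilient sites 0 passed too.

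Part of the resilient sites lay where susceptible ones did. In Csmd3, 11 of 93 susceptible sites (11.8%) overlapped 10 of 24 resilient sites (41.7%), and both members of all 11 pairs were higher. In Csmd1, 2 of 25 (8%) overlapped 2 of 16 (12.5%), 1 pair higher and 1 lower. These comparisons share their control libraries, so the values are given side by side and the likeness is not a result. A single interval was the same in both tables, chr15:48647501-48648500 in Csmd3 intron 2. It held 102.74, 121.91, 83.49 and 108.51 reads in the susceptible libraries against 86.43, 63.37, 73.60 and 81.66 in the controls. In the resilient table it held 98.75, 98.65, 97.02 and 125.24 against 88.64, 65.18, 75.24 and 83.58, since the tables were normalised separately. The resilient libraries lay above all controls there, while susceptible library 32 lay below control library 25. The overlapping pair with the largest change in Csmd3 was the one in intron 38, at 74.6 ± 3.19 against 51.4 ± 11.1 reads in the susceptible and 106 ± 6.90 against 72.8 ± 16.1 in the resilient table, both 0.54 on the authors' log2 scale.

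The other shared stretches were higher in both tables, save 1 in Csmd1 that was lower in both. Nearest the start of Csmd3, 13.1 kb into the gene, susceptible libraries held 105 ± 16.5 against 74.3 ± 18.4 reads and resilient libraries 112 ± 19.7 against 84.8 ± 19.7 (SD, n = 4 each, here and in this paragraph). At 242.0 kb, in a stretch where the resilient site also touches the small nuclear RNA gene Gm25007, they held 152 ± 8.68 against 114 ± 14.5 and 206 ± 24.8 against 161 ± 32.3. At 872.5 kb they held 180 ± 33.5 against 144 ± 17.7 and 192 ± 10.5 against 151 ± 19.3, and susceptible library 32, at 130.68, was below the control mean. Groups were apart at 3 of the 11 susceptible and 3 of the 10 resilient sites involved, beside 52.8% of all susceptible and 54.7% of all resilient sites. In Csmd1 the shared higher stretch, 283.9 kb into the gene, held 90.7 ± 17.5 against 66.2 ± 7.41 and 140 ± 9.47 against 102 ± 1.52. The shared lower stretch, at 807.4 kb, held 81.0 ± 14.9 against 112 ± 19.4 and 68.8 ± 6.72 against 95.4 ± 20.7, with groups overlapping in both.

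After early life stress and subthreshold defeat the directions were otherwise. Csmd3 held 7 sites, 6 lower and 1 higher. Csmd1 held 7, 5 lower and 2 higher. Csmd2, without a site in any other table, held 4, all higher. Of the 18 sites 38.9% were higher, beside 67% of all 9893 sites in this table and 62.6% in protein-coding genes of at least 500000 bp. Median log2 changes were -0.66 in Csmd3, -0.69 in Csmd1 and 0.86 in Csmd2, and on the limma scale -0.61 over the 3 genes, beside 0.85 over the table. Those limma medians pool higher and lower sites and so follow the mix of directions. By direction, the authors' median over the whole table was 0.98 at higher and -0.97 at lower sites. These libraries were shallower, at 5.0 to 7.78 reads per 1000-bp bin against 20.57 to 30.39 in the defeat cohort, and their test was a negative binomial one.

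The 4 Csmd2 sites lay in introns 5, 15 and 21, from 269.9 to 410.7 kb from the start. The leading one, at chr4:128376001-128377000 in intron 15, held 40.14, 43.86 and 48.55 reads after ELS and defeat and 23.71, 23.32 and 25.28 in standard controls. The groups did not overlap (44.2 ± 4.21 against 24.1 ± 1.04, SD, n = 3 each), as at 99.0% of all sites of this comparison. The log2 change was 0.84 ± 0.18 (SE, limma), at a site picked for its small p on these libraries. Over the 4 sites the level was 50.4 ± 5.15 against 28.1 ± 3.55 reads per kb. The control level was below IgG at 2 of the 4 sites, with enrichment ratios of 0.60 and 0.72, and the median ratio was 1.61 after ELS and defeat against 0.94 in controls. At a stricter adjusted p of 0.01 none of the 4 Csmd2 sites passed. With each library scaled to the same median over the table, their median log2 change was 0.43 in place of 0.84. Those library medians rest on listed sites only, 67% of them higher, so this scaling is no independent check of the normalisation.

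Csmd3 and Csmd1 held more reads per kb at their ELS sites than Csmd2, and most of these sites were lower after ELS and defeat. Over its 7 sites Csmd3 held 66.3 ± 2.83 against 86.6 ± 1.51 reads per kb, and Csmd1 51.8 ± 1.06 against 65.4 ± 5.94 (SD, n = 3 each). The Csmd3 site of smallest p, at chr15:48664001-48665000 in intron 2, held 106.65, 97.05 and 114.35 reads against 139.31, 148.69 and 127.28. All 3 stressed libraries lay below the controls, and the log2 change was -0.38 ± 0.18 (SE, limma), with an unadjusted limma p of 0.0551. It shared 100 bp with a susceptible site of the opposite direction, chr15:48663101-48664100, which held 182.76, 149.00, 143.99 and 184.20 reads against 137.92, 133.65, 128.00 and 121.60. Those groups were apart as well, with a log2 change of 0.33 ± 0.14. Groups were apart at 52.8% of all susceptible and 99.0% of all ELS sites. The difference between the cohorts was not tested, since they come from separate tables with separate normalisation. No other Csmd site after ELS and defeat overlapped a site of the defeat cohort.

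The leading higher site of Csmd1 after ELS and defeat, at chr8:16697501-16698500, contains exon 5. It held 69.95, 76.52 and 99.25 reads against 45.45, 47.62 and 54.05, a log2 change of 0.72 ± 0.20. The leading lower one, at chr8:16380501-16381800 in intron 8, held 44.72, 61.59 and 52.86 against 84.97, 79.69 and 120.30, a change of -0.82 ± 0.21. The other Csmd1 sites after ELS and defeat were 1 higher, at 75.5 ± 8.78 against 44.8 ± 7.88 reads 801.6 kb from the start, and 4 lower. The lowest of these in reads, 1316.5 kb from the start, held 18.9 ± 3.90 against 36.9 ± 4.22. Its enrichment ratios were 0.56 after ELS and defeat and 0.74 in controls, so both groups were below IgG there. In Csmd3, 2 neighbouring lower sites of intron 13 held 39.5 ± 7.95 against 73.7 ± 21.5 and 40.8 ± 10.8 against 67.7 ± 6.30 reads (SD, n = 3 each), and the lower site with exon 45 held 69.5 ± 6.80 against 110 ± 3.69. The single higher Csmd3 site, at chr15:47624601-47625800 in intron 59, held 135 ± 18.7 against 84.4 ± 13.1. In this table the groups were apart at 18 of 18 Csmd sites, beside 99.0% of all its sites, so that the count says nothing of these genes. By limma, 17 of 18 had an unadjusted p under 0.05, beside 98.6% of all sites, and 0 passed adjusted over 1287727 windows (smallest adjusted p = 0.0944).

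H3K27me2 had no site in any of the 3 genes, in either defeat comparison. The tables held 2075 susceptible sites, 69.4% of them higher, and 4659 resilient sites, 79.5% of them higher. The nearest H3K27me2 sites to Csmd3 lay 137 kb before its start (lower, susceptible) and 180 kb before its start (higher, resilient). Fewer windows entered those tests, 48304 and 52728, and of 230 genes of at least 500000 bp, 41 held an H3K27me2 site. Over all protein-coding genes, 0.766% held a susceptible and 1.20% a resilient one. A gene without a listed site is one in which no window passed the authors' limit, and its level was not analysed here.

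For H3K27me1 too, the sites near the edges of the genes show where the rule stops. In the susceptible table the nearest site outside lay 245 kb past the end of Csmd3 (higher) and 872 kb past the end of Csmd1 (lower). The nearest to Csmd2, which had none, lay 738 kb before its start (lower). After ELS and defeat the nearest lay 34.4 kb before Csmd3, 55.2 kb past Csmd1 and 83.9 kb before Csmd2. The largest adjusted p among the 176 sites was 0.0470, and every deposited row in these genes was past the threshold.

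Set against other long genes, Csmd3 was near the top in the susceptible comparison and Csmd2 was among those without sites. Csmd3 held 76.8 sites per Mb, the highest of 59 protein-coding genes of at least 1000000 bp, whose median was 3.51. Among 230 genes of at least 500000 bp only the kainate receptor gene Grik2, with 85.0, was above it. Csmd1 held 15.2 per Mb. In the resilient table Csmd3, with 19.8 per Mb, came next after Nkain2, with 21.6, among the 59 genes. Among the 230, led by Mdga2 with 30.4, 10 genes, Csmd3 included, were at or above its value, and Csmd1 held 9.74. After ELS and defeat Csmd3, Csmd1 and Csmd2 held 5.78, 4.26 and 6.90 sites per Mb, beside a median of 4.50 over the 230. Csmd2 had no susceptible or resilient site, where 147 and 136 of the 230 had at least 1. Of all 21924 protein-coding genes, 19.8% held a susceptible, 14.7% a resilient and 13.5% an ELS site.

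Direction was also set beside that of other long genes of like base composition. The transcripts of Csmd1, Csmd2 and Csmd3 had GC contents of 50.3%, 55.9% and 42.5%. Among genes of at least 500000 bp within 2 points of Csmd3, 55 genes held 530 susceptible sites, 93.8% of them higher, beside 98.9% in Csmd3. Around Csmd1, 49 genes held 197 sites, 77.7% higher, beside 76.0% in Csmd1. Around Csmd2, 13 genes held 90 sites, 45.6% higher. After ELS and defeat the shares of higher sites around Csmd3, Csmd1 and Csmd2 were 51%, 77.5% and 78.7%, beside 14.3%, 28.6% and 100% in the genes themselves, which rest on 7, 7 and 4 sites. The part of base composition in these directions was not tested.

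Values of other long adhesion and receptor genes are given beside these, with no test of a difference. Lrp1b, a giant lipoprotein receptor, held 54 susceptible sites (52 higher), 23 resilient (18 higher) and 13 after ELS and defeat (4 higher). The IgLON adhesion gene Lsamp held 51 (50 higher), 30 (30 higher) and 7 (3 higher), and Negr1, of the same family, 32 (28 higher), 14 (12 higher) and 1 (higher). Cadm2, a SynCAM adhesion gene, held 54 (49 higher), 17 (7 higher) and 4 (0 higher). Long genes without such runs of sites also occurred, since the IgLON genes Ntm and Opcml, of 968 and 1135 kb, held 1 and 0 susceptible sites.

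**Figure D5:**
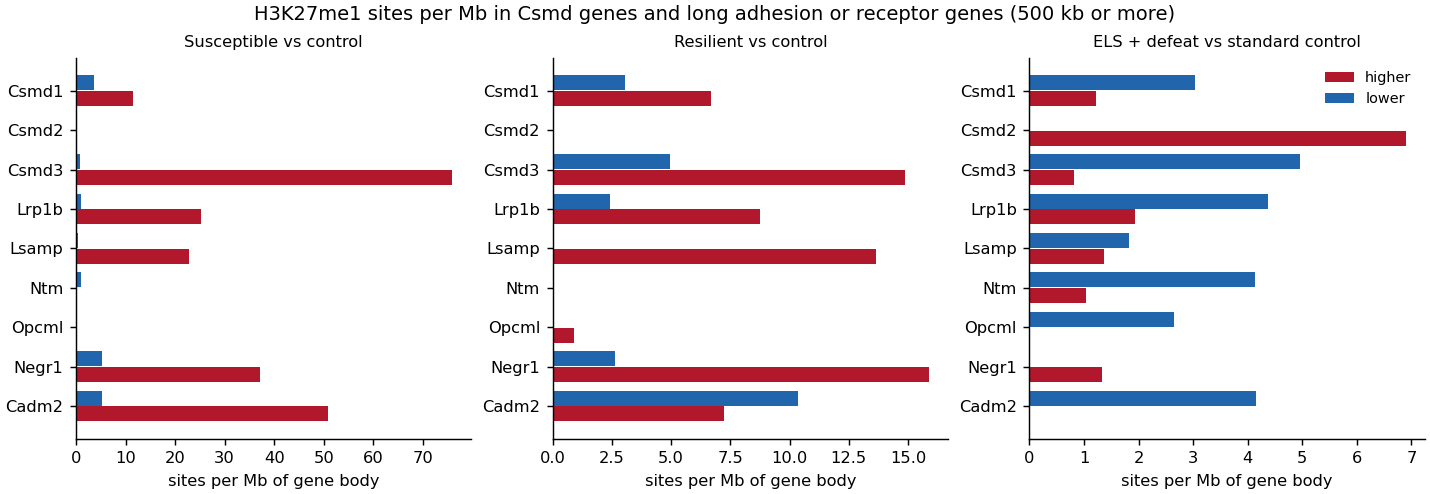
Higher (red) and lower (blue) H3K27me1 sites per Mb of gene body (x axis, from 0, with its own scale in each panel) for the Csmd genes and for other adhesion or receptor genes of at least 500000 bp, by comparison. Csmd3 has the longest bar in susceptible libraries, at 76.8 sites per Mb in all, and Csmd2 has sites only after ELS and defeat.

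Over higher and lower sites per Mb in the 5 tables, the genes most like Csmd3 among 884 of at least 200 kb were Lrfn5, Grik2, Dok6, Tasp1 and Pclo. Their Bray-Curtis dissimilarities, where 0 is identical, were 0.0308, 0.0588, 0.0785, 0.137 and 0.146. Lrfn5, a synaptic adhesion gene, held 25 susceptible sites, all higher, 5 higher and 1 lower resilient sites, and 2 lower sites after ELS and defeat. The genes most like Csmd1 were Dlg2, a postsynaptic scaffold, at 0.0969, then Exoc4, Ppp2r2b, Psd3 and Fat3 at 0.117 to 0.155. Dlg2 held 17 higher and 7 lower susceptible sites.

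Other genes with CUB or sushi domains were at or near the share of all protein-coding genes with a site in the defeat cohort. Of 33 relatives, 6 (18.2%) held a susceptible site, beside 19.8% of all genes, 2 with higher sites (Pdgfc and Neto2) and 4 with lower ones (Susd4, Sez6l2, Susd6 and Lrp12). Resilient sites were found in 5 (15.2%, beside 14.7%), all higher. In the ELS cohort 8 (24.2%, beside 13.5%) held sites, 5 higher and 3 lower. Neto2, an auxiliary subunit of kainate receptors with CUB domains, held 120 ± 18.4 against 87.4 ± 14.2 reads at its leading susceptible site and 96.6 ± 8.08 against 71.2 ± 16.9 at the overlapping resilient one (SD, n = 4 each). Sez6l2, a neuronal relative with both kinds of domain, held 44.6 ± 14.7 against 68.8 ± 5.34 in the susceptible table. After ELS and defeat its paralogue Sez6l held 68.4 ± 5.87 against 39.9 ± 5.88 (SD, n = 3 each). Tll1, a CUB domain protease, was the 1 relative with H3K27me2 sites, 1 lower in susceptible and 1 higher and 1 lower in resilient libraries.

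Of 39 annotated complement genes, 1 held a susceptible and 1 a resilient H3K27me1 site, beside 19.8% and 14.7% of all protein-coding genes. Masp2, a protease that starts the lectin pathway, held 1 lower susceptible site (78.3 ± 7.17 against 107 ± 15.0 reads). Cr1l, a complement regulator with sushi domains, held 2 higher resilient sites (71.8 ± 4.22 against 49.4 ± 10.6 at the leading one; SD, n = 4 each). After ELS and defeat 4 of the 39 (10.3%) held an H3K27me1 site, beside 13.5% of all protein-coding genes. Among them C8b and C6 held higher sites and C7 a lower one, all encoding parts of the membrane attack complex.

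Markers of cell types were looked at because a shift in cells could move a tissue signal. Of 10 microglial genes, 1 held susceptible sites, Cx3cr1 with 6 lower (227 ± 24.2 against 289 ± 25.7 reads at the leading one), and it held 1 lower resilient site. Of 8 neuronal genes, 2 held susceptible sites, Map2 and Syt1 with 5, all higher, and Map2 held 2 higher and 2 lower resilient sites, the leading one lower (48.4 ± 12.7 against 73.3 ± 5.75). The share of all protein-coding genes with a site was 19.8% for susceptible, 14.7% for resilient and 13.5% for ELS sites. None of 6 astrocyte or 6 oligodendrocyte genes held a site in the defeat cohort. After ELS and defeat P2ry12 held 1 lower site, neuronal genes 2 higher and 4 lower, and Slc1a2 and Mbp higher sites. The tables list changed sites only, and the part of these cells in the Csmd values was not tested.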

How the data were processed

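H3K27me1, H3K27me2 and IgG libraries were mapped to mm10. Per the submitters' processing notes the tools included Bowtie2 2.4.1, MACS2 2.2.6, SAMtools 1.10, Trim Galore 0.6.5 and cutadapt 2.10, with no role or order given. Per the file headers the authors called sites with diffReps 1.55.4 in windows of 1000 bp moved by 100 bp, at a p limit of 0.0001, by a G-test (defeat cohort) or a negative binomial test (ELS). The deposited reads per library are normalised counts, reads divided by a library constant of the authors. The deposited group signal is their mean, the deposited enrichment is a ratio over IgG, the log2 fold change is stressed over control by the authors, and each p-value and adjusted p-value is the authors'.

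Sites past an adjusted p of 0.05 were matched to GENCODE M21 genes, with exons numbered on the longest protein-coding transcript. The values of libraries were taken in the order of the header's file list. Each table was fitted whole with limma 3.58.1 on log2(normalised count + 1), which understates changes at low counts, and p adjusted over all windows the headers give. The limma step was tested on simulated data. Genes, gene lists and tests were chosen with earlier results of these data known. Sites named are, per gene, table and direction, that of smallest p with at least 10 reads, those shared by 2 tables and those within 5000 bp of a transcript start. The sites shown for their exons and the further ELS sites of Csmd1 and Csmd3 were chosen after their values were seen. The sites of 1 listed gene are not reported here. Gene likeness was the Bray-Curtis dissimilarity over 10 values. Library constants ran from 0.83 to 1.17 in the defeat H3K27me1 tables. Python 3.11.15, pandas 2.3.3, numpy 2.4.6, matplotlib 3.10.9 and R 4.3.3 were used.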

Additional observations from a re-analysis of the deposited data

Results flagged for a closer look

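At the leading lower Csmd1 site of the susceptible comparison, library 32 held 39.93 normalised reads, apart from the other 3 susceptible libraries at 62.92 to 67.17. Over all Csmd1 sites of the resilient comparison, control library 28 lay 0.04 above the control mean on the log2 scale, apart from the other controls at -0.02 to -0.01. These were 2 of 24 groups of 4 libraries examined, and chance alone sets about 1 in 20 apart. The neighbouring Csmd3 sites in intron 2, which shared 100 bp, were called in opposite directions in the cohorts. The authors' log2 changes were 0.34 in susceptible libraries and -0.38 after ELS and defeat. Every stressed library lay on 1 side of the controls at each site, as at 52.8% of all susceptible and 99.0% of all ELS sites. By limma the ELS site had an unadjusted p of 0.0551. Its enrichment ratio over IgG was 3.50 in stressed and 3.45 in control libraries. The difference between the cohorts was not tested.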

How the results depend on the processing

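Of 89 alternative values for the counts, group separations and median changes over the 3 genes, 83 stayed within 1.5 times the count or within the spread between libraries, and none changed direction. At an adjusted p of 0.01, 5 of the 18 Csmd sites after ELS and defeat remained, against 114 of 118 susceptible and 40 of 40 resilient sites. Those 5 were 3 in Csmd1, 0 in Csmd2 and 2 in Csmd3. Leaving out 1 library at a time, the sites with groups apart numbered 46 to 82 (susceptible), 18 to 27 (resilient) and 18 (ELS), and median log2 changes over the 3 genes ran from 0.35 to 0.47, from 0.35 to 0.43 and from -0.60 to -0.55. The largest susceptible count came without susceptible library 32, and the resilient counts of 27 and 25 without resilient library 27 and control library 28. Fewer libraries per group make a separation easier. With each library scaled to the same median over the sites of its table, the ELS median over the 3 genes was -1.03 in place of -0.61. That scaling moved the median of all ELS sites by -0.41, and each Csmd site kept its direction. The library medians rest on listed sites only, 67% of them higher in the ELS comparison. The scaling therefore cannot tell a shift in normalisation from that mix of directions. Higher sites became smaller: the Csmd2 median was 0.43 in place of 0.84, the leading higher Csmd1 site 0.30 in place of 0.72 and the higher Csmd3 site 0.25 in place of 0.67. The H3K27me2 counts were 0 under every alternative, so they had no separation or median to recompute. They are among the 83 values, although without a deposited site in these genes they had little room to change. No paired analysis was possible because each library has a number of its own. Without raw counts in a column of their own, no count model was run. The G-test p-values rest on pooled reads, and the ELS sites on libraries of low depth.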
